A study of Mus musculus with 6 samples.

Results

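The genes described here encode the 6 subunits of the MCM2-7 complex, the ring-shaped motor of the replicative helicase, and Cdt1, the factor that brings that ring to DNA. They are Mcm2, Mcm3, Mcm4, Mcm5, Mcm6, Mcm7 and Cdt1, and they were chosen by gene name. Together these 7 genes, of 8513 in the main table, had 14 of its 15905 transcript rows. RNA had been sequenced from B16.F10 cells, a mouse melanoma line labelled as wild type, in 3 control samples with no treatment and 3 samples given 3.5 µM simvastatin for 24 h. Simvastatin blocks the synthesis of mevalonate, the precursor of cholesterol and of prenyl anchors, and the dose is the one that the labels give as inhibitory in this line. All samples are of 1 cell line and carry 1 batch date. The table gives 1 value per group for each transcript and no value per sample, so no SD could be computed, the depth is unknown, and no source used here names the unit of the values.

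Replication licensing is the step in G1 in which origins are made ready for S phase. The origin recognition complex and Cdc6 sit on DNA, and with Cdt1 they close MCM rings around it. In S phase Cdc45 and the GINS complex join the ring to make the active helicase, while Cdt1 is bound by geminin and destroyed, so that no origin is licensed again. The licensing genes are well known targets of E2F transcription factors and are transcribed mostly in cells that divide. In a bulk sample a smaller share of cells at that stage and less RNA per cell cannot be told apart.

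Short stretches of the promoters that hold E2F-type letters are shown first. The part of these letters in the values of the 7 genes was not tested. The RefSeq table (GRCm38.p6) held 7 promoters for 6 of the 7 genes, each of 250 bases before the start site and 50 after it, and none was used for Mcm4. The letters searched, on both strands, were TTTCCCGC, TTTCGCGC, TTTGCCGC and TTTGGCGC, and matches may overlap each other. They are in capitals below, in windows of 30 bases on the gene's strand, and positions count from 0 at the start site.

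Mcm6 at -110 to -99: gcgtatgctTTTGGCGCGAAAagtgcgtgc
Mcm6 at -47 to -40: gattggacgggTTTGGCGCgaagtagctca
Mcm5 at -153 to -142: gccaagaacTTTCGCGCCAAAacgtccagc
Mcm3 at 19 to 45: gGCGGGAAAacttgggaagtTTTGGCGCca
Mcm7 at -165 to -158: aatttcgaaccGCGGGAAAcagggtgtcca
Mcm7 at 16 to 23: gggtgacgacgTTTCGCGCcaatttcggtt
Cdt1 at 32 to 39: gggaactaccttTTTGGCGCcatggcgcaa

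The windows lie at chr1:128359795-128359824 and chr1:128359734-128359763 for Mcm6, chr8:75109347-75109376 for Mcm5 and chr1:20820265-20820294 for Mcm3. Those of Mcm7 lie at chr5:138172030-138172059 and chr5:138171849-138171878, and that of Cdt1 at chr8:122568035-122568064. Mcm5 and Cdt1 are on the plus strand and the other 3 genes on the minus strand. An E2F-type match was thus present for 5 of the 6 genes with a promoter sequence, and for 2.6% of all 27025 genes in the promoter table. Counted by promoter, 5 of the 7 held a match, beside 2.26% of all 32851 promoters of this length. In Mcm5 and in the upstream window of Mcm6, matches on opposite strands overlap, so that each stretch holds 2 matches. The promoter of Mcm2 had no match to these letters. CCAAT, searched on both strands, was present for 5 of the 6 genes, all but Cdt1, and for 41.1% of all genes (37.4% of all promoters). In Mcm7 a CCAAT match shares 1 base with the E2F-type match at 16 to 23. TTTGAA, the core of the CHR element of cell cycle genes, was present in Mcm2 alone of the 6 genes and in 20.2% of all genes (17.9% of all promoters). The start sites of RefSeq for Mcm5, Mcm6 and Mcm7 differ from the gene starts of GENCODE, and these matches describe letters and not binding.

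**Figure D1:**
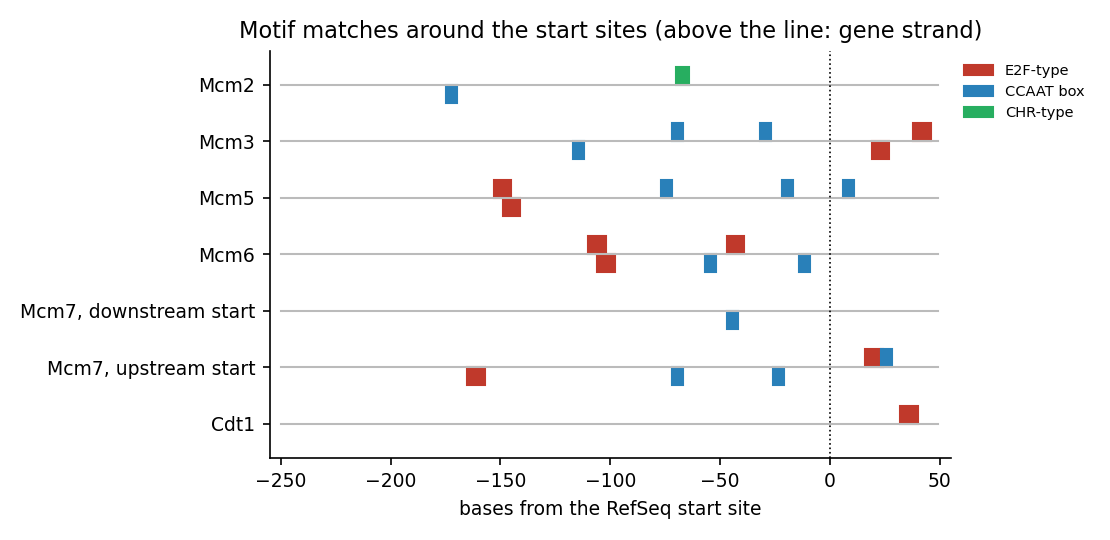
Motif matches in 7 RefSeq promoters of 6 licensing genes, with the horizontal axis in bases from the start site and boxes above each line for the gene's strand and below it for the other strand. E2F-type boxes are seen in Mcm3, Mcm5, Mcm6, 1 of the 2 Mcm7 promoters and Cdt1, and none in Mcm2.

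All 7 licensing genes stood lower with simvastatin, and 4 of them fell by the authors' test, namely Cdt1, Mcm2, Mcm3 and Mcm4. The value in treated cells was below that in control cells in 14 of 14 transcript rows. Over all transcripts with a value above 0 in both groups the median log2 fold change was 0.018, so a lower value alone was common. Rows of the same gene are also not separate observations. Over summed transcripts, the treated value of the 6 helicase genes lay between 44.8% of control (Mcm7) and 54.6% (Mcm2). The authors' adjusted p under 0.05, printed to 3 decimals, is the threshold used here for "fell". By this rule 1.81% of all genes in the table had a lower transcript, and 0.987% of all transcripts were lower.

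Mcm2 (chromosome 6, 88883474 to 88898780 in GRCm38, minus strand) encodes the subunit whose tail binds histones H3 and H4. Its 1 transcript, Mcm2-201, had a group value of 66.5 with simvastatin and 122 in control. By the authors' deposited table this was a 1.83-fold fall, with an adjusted p of 0.042. Among the 7 genes Mcm2 had the smallest log2 fold change of summed values, -0.87.

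Mcm3 (chromosome 1, 20802968 to 20820312, minus strand) encodes the subunit that contacts the origin recognition complex and Cdc6 during loading. Its single transcript, Mcm3-201 of 17 exons, had values of 28.2 with simvastatin and 58.7 in control. The fall was 2.08-fold by the authors' deposited table, which gives an adjusted p of 0.045.

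Mcm4 (chromosome 16, 15623897 to 15637400, minus strand) encodes a subunit with a long tail that the Cdc7 kinase phosphorylates. Its protein coding transcript Mcm4-201 had values of 17.1 with simvastatin and 30.3 in control, and by the authors' deposited table it fell 1.77-fold with an adjusted p of 0.047. A second row, a model assembled from reads, stood at 2.21 and 7.87 and did not pass (adjusted p = 0.448 in the authors' deposited table). This model made up 11.4% of the gene's summed value with simvastatin and 20.6% in control. The log2 fold change was -0.98 with both rows and -0.82 with Mcm4-201 alone.

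Mcm5 (chromosome 8, 75109569 to 75128439, plus strand) encodes the subunit that forms, with Mcm2, the gate through which DNA enters the ring. All 3 of its rows are protein coding transcripts and none passed. Mcm5-205 stood at 15.5 with simvastatin and 31.8 in control, Mcm5-201 at 10.8 and 19.7, and Mcm5-203 at 0.30 and 2.40. The adjusted p was 0.281, 0.229 and 0.218 in the authors' deposited table, and the unadjusted p was 0.058, 0.04 and 0.037. Summed over the rows, Mcm5 stood at 26.6 against 53.9, a log2 fold change of -1.02, which is more negative than those of Mcm2 and Mcm4, 2 genes that passed. The group values of Mcm5 therefore differed as much as those of subunits that fell, while its p-values did not pass.

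Mcm6 (chromosome 1, 128331590 to 128359664, minus strand) encodes a subunit that binds Cdt1. Its main transcript Mcm6-201 had values of 44.5 with simvastatin and 84.8 in control, and Mcm6-203 had 9.51 and 15.6. The adjusted p was 0.107 and 0.181 in the authors' deposited table, so neither passed. The share of Mcm6-201 in the gene's summed value was 82.4% with simvastatin and 84.4% in control.

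Mcm7 (chromosome 5, 138164583 to 138172422, minus strand) forms with Mcm4 and Mcm6 a subcomplex that unwinds DNA by itself. Its row of highest value, an assembled model, had values of 14.03 with simvastatin and 24.4 in control, a 1.74-fold difference whose adjusted p is printed as 0.05 in the authors' deposited table and is not counted. Mcm7-205, annotated as a transcript with a retained intron, stood at 5.93 and 18.4 (adjusted p = 0.315 in the authors' deposited table). A second assembled model stood at 0.01 and 1.76 (adjusted p = 0.604 in the authors' deposited table). The assembled model of highest value made up 70.3% of the gene's sum with simvastatin and 54.8% in control, while Mcm7-205 made up 29.7% and 41.3%. These shares have no test, since there is 1 value per group.

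Cdt1 (chromosome 8, 122568015 to 122573554, plus strand) encodes the loading factor itself. Its protein coding transcript Cdt1-201, of 10 exons, had values of 9.83 with simvastatin and 21.7 in control. The authors' deposited table gives it a 2.21-fold fall at an adjusted p of 0.033, which is the lowest of the 14 rows. Cdt1-205, which retains an intron, stood at 2.40 and 3.88 (adjusted p = 0.687 in the authors' deposited table). Summed, Cdt1 stood at 12.2 against 25.6, a log2 fold change of -1.06.

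**Figure D2:**
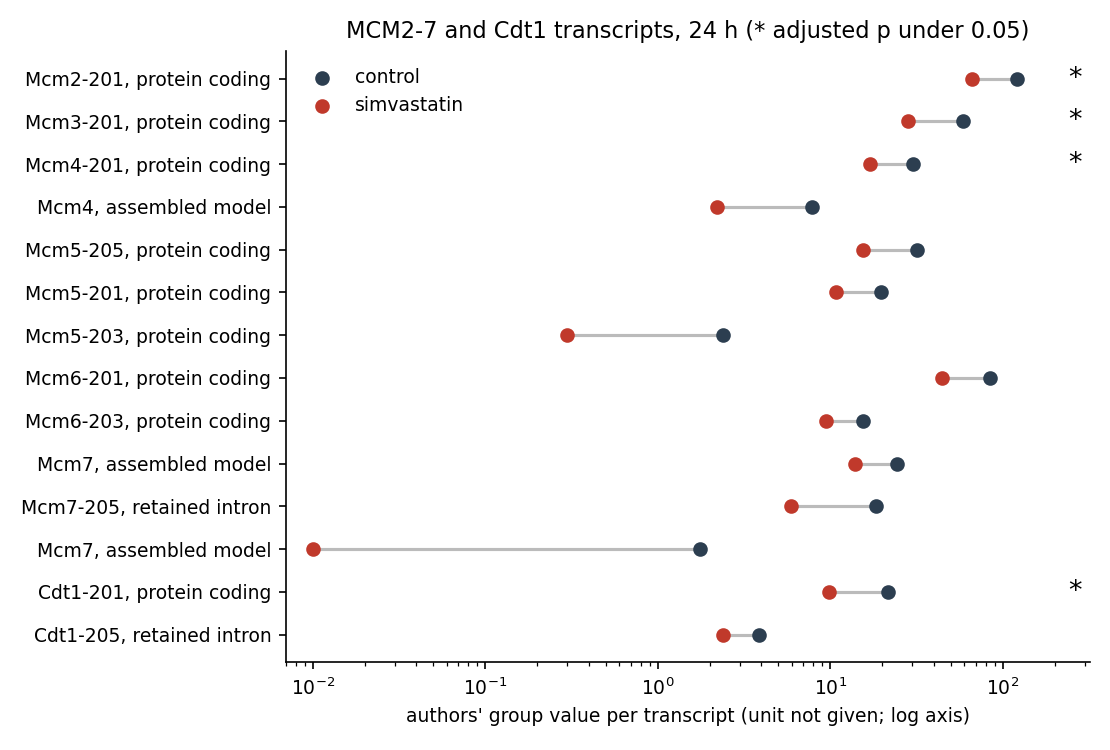
Group values of the 14 transcript rows of Mcm2 to Mcm7 and Cdt1 on a log axis, with simvastatin in red, control in dark blue and a star where the authors' adjusted p was under 0.05. In every row the simvastatin point lies to the left of the control point, and the widest gap is that of an Mcm7 assembled model at 0.01 against 1.76.

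Whether the helicase subunits were lowered alike was the next comparison. The log2 fold changes of summed values were -1.16 for Mcm7, -1.06 for Mcm3, -1.02 for Mcm5, -0.98 for Mcm4, -0.89 for Mcm6 and -0.87 for Mcm2. Their median was -0.999, and they spanned 0.28 on the log2 scale. Over 8505 genes with a value above 0 in both groups the median log2 fold change was 0.02, with quartiles of -0.32 and 0.35. The window between Mcm7 and Mcm2 held 214 of these genes, or 2.52%. Cdt1, at -1.06, lay inside it. No error per subunit is known, so no difference between neighbours in this order could be tested, and the narrow span is a description of 1 value per gene.

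The order depended on which rows stood for Mcm7. With the transcript of highest value for each gene the 6 subunits spanned 0.26, and Mcm7 had the smallest difference, -0.80, instead of the largest. With Ensembl transcripts alone Mcm7 was represented by its retained-intron transcript, had a log2 fold change of -1.63 and widened the span to 0.81, while the other 5 subunits lay between -1.06 and -0.82. All group values of the table add up to 344210 for treated cells and 394749 for control cells. Scaling both groups to the same sum would raise each log2 fold change by 0.20, which leaves the median of the 6 subunits at -0.80 and the smallest difference, that of Mcm2, at -0.68. Each of the 7 genes stayed below 0 in each of these settings. Since every row was lower, only the scaling could have changed a sign.

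**Figure D3:**
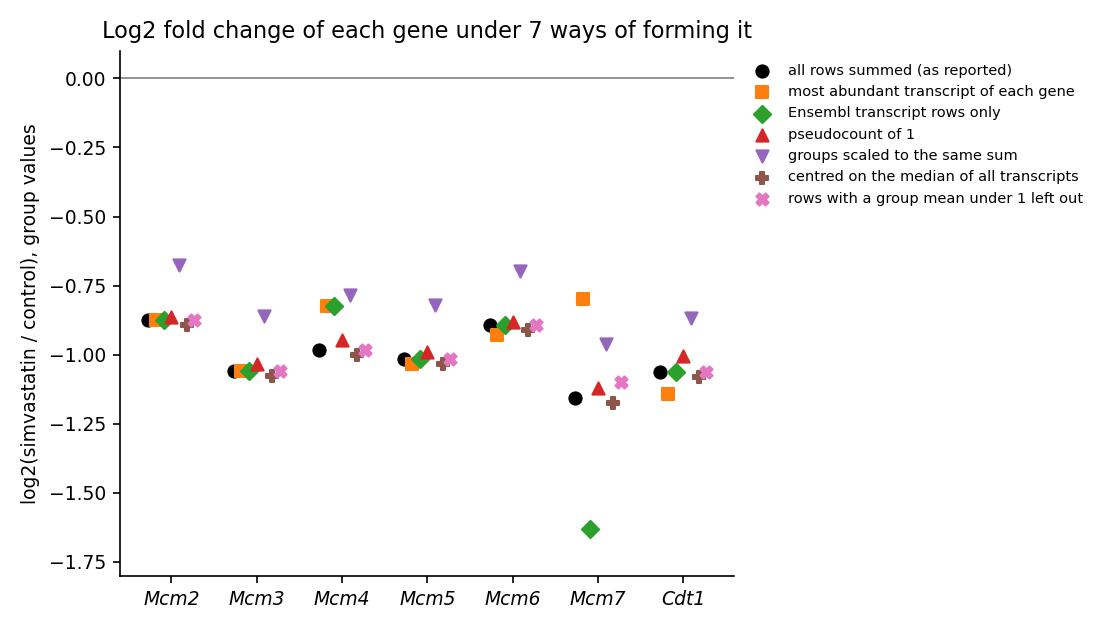
Log2 ratio of simvastatin to control for each of the 7 genes under 7 ways of forming it, with a point for each setting and black for all rows summed. All points lie below 0, from -1.63 for Mcm7 with Ensembl transcripts alone to -0.68 for Mcm2 after scaling to the same sum.

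How many of the genes counted as lower depended on the rule. The authors also deposited a call, whose rows extend to an adjusted p of 0.2 and have folds of 1.5 or more. By that call 6 of the 7 genes and 7 of the 14 transcripts were lower, beside 7.52% of all genes and 4.37% of all transcripts. Mcm5 was the 1 gene without it. At an unadjusted p under 0.05, all 7 genes and 9 of the 14 transcripts were lower, beside 17.5% of all genes and 10.2% of all transcripts. With the Benjamini-Hochberg adjustment recomputed from p-values printed to 3 decimals, Mcm7 passed besides the 4 genes that fell. This gave 5 genes and 5 transcripts lower, beside 3.5% of all genes and 1.91% of all transcripts. Rounding ties many of these p-values, 184 of them printed as 0 over all transcripts, so the recomputed counts are approximate.

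Genes that act with the helicase before and after loading, and regulators of their transcription, had smaller differences on the median. Across 5 lists of such genes, 52 of 68 were measured, and their median log2 fold change of summed values was -0.36. Of these 52 genes, 2 fell (Dtl and E2f1) and 1 rose (Ddb1), beside 1.81% of all genes lower and 2.03% higher by the same rule. By the call that the authors deposited 15 were lower and 0 higher, beside 7.52% of all genes lower and 8.58% higher. At an unadjusted p under 0.05, 23 were lower and 3 higher, beside 17.5% and 15.8% of all genes. The log2 fold change was at or below that of Mcm2 in 7 of the 52, beside 5.96% of 8505 genes. The 7 were Cdc6, Mybl2, Fbxo5, Mcm10, Gins1, Nasp and Cdc45, which were named after their values were seen. With both groups scaled to the same sum the median of the 52 was -0.16, and the medians of the lists for Cdt1 turnover and for E2F and DREAM regulators, below 0 as deposited, became 0.0013 and 0.0032.

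In the list for loading, 10 genes were measured and none passed, beside 1.81% of all genes lower, and the log2 fold changes had a median of -0.23. This list leaves out Cdt1 and also holds genes that are not loading factors, such as Gmnn and Bahd1. By the deposited call 2 of the 10 were lower, beside 7.52% of all genes, and 3 were at an unadjusted p under 0.05, beside 17.5%. The 6 subunit genes of the origin recognition complex ranged from -0.84 for Orc1 to 0.23 for Orc3, and Orc1, Orc3 and Cdc6 are named here after their values were seen. Orc2 stood at 31.98 with simvastatin and 37.0 in control over its transcripts (smallest adjusted p = 0.084 in the authors' deposited table). Orc1, the subunit that is degraded and made anew in each cycle, stood at 3.83 and 6.86 (adjusted p = 0.14 in the authors' deposited table). Cdc6, the loading ATPase, stood at 3.52 and 9.55 over 2 rows, 1 of them listed at 0 with simvastatin (smallest adjusted p = 0.134 in the authors' deposited table). Gmnn, for geminin, the inhibitor of Cdt1, stood at 11.3 and 19.6 (adjusted p = 0.371 in the authors' deposited table), a log2 fold change of -0.79. Kat7, for the histone acetyltransferase that assists loading, stood at 17.2 and 18.3 (smallest adjusted p = 0.263 in the authors' deposited table). The genes of the stable ORC subunits thus had smaller differences in group value than the 6 helicase genes, and the difference between these sets was not tested.

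Genes for the turnover of Cdt1 protein went in both directions. Dtl, for Cdt2, the receptor that brings Cdt1 to the CUL4 ubiquitin ligase, fell 1.63-fold, from 15.6 to 9.59 on its main transcript (adjusted p = 0.042 in the authors' deposited table). Ddb1, the adaptor of the same ligase, rose 1.31-fold, from 156 to 205 (adjusted p = 0.042 in the authors' deposited table). After scaling to the same sum the direction of both remains, since the shift of 0.20 is smaller than the log2 fold change of Dtl, -0.85, and adds to that of Ddb1, 0.39. Named after their values were seen, the scaffold genes Cul4a and Cul4b had log2 fold changes of 0.04 and 0.03. Pcna, on which Cdt1 is recognised for destruction and which was named in the same way, stood at 128 and 204 (adjusted p = 0.109 in the authors' deposited table). The other genes of this list did not pass, and its median over 11 measured genes was -0.20. The 1 gene that fell and the 1 that rose stand beside 1.81% of all genes lower and 2.03% higher. By the deposited call 3 of the 11 were lower, beside 7.52% of all genes, and 4 were lower and 1 higher at an unadjusted p under 0.05, beside 17.5% and 15.8%.

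Among genes that turn the loaded ring into an active helicase none of 11 measured passed at an adjusted p under 0.05, beside 1.81% of all genes lower. By the call that the authors deposited 5 were lower and 0 higher, beside 7.52% and 8.58% of all genes, and 6 were lower at an unadjusted p under 0.05, beside 17.5%. Their median log2 fold change was -0.39. Cdk2, the S phase kinase, stood at 164 with simvastatin and 126 in control over 6 transcripts (smallest adjusted p = 0.339 in the authors' deposited table). Topbp1, which brings activators to the origin, stood at 31.9 and 36.4, and Gins4, of the GINS complex, at 18.5 and 24.2 (smallest adjusted p = 0.53 and 0.243 in the authors' deposited table). Named after their values were seen, Gins1 stood at 5.63 and 11.5, Ccne1, for cyclin E1, at 11.3 and 19.7, and Cdc45 at 12.2 and 22.7. Their smallest adjusted p was 0.053, 0.053 and 0.069 in the authors' deposited table. Only 2 of the 4 GINS genes were measured.

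Of the MCM relatives and histone chaperones that work beside Mcm2, 5 of 8 genes were measured, none passed, beside 1.81% of all genes lower, and the median log2 fold change was -0.52. By the deposited call 2 of the 5 were lower, beside 7.52% of all genes, and 4 were at an unadjusted p under 0.05, beside 17.5%. Nasp, a histone chaperone, stood at 13.4 and 26.5 over 3 rows, a log2 fold change of -0.99 (smallest adjusted p = 0.083 in the authors' deposited table). Asf1b, another, stood at 10.8 and 15.5 (adjusted p = 0.109 in the authors' deposited table). Mcmbp, a partner of free MCM subunits, stood at 19.3 and 20.3 with a log2 fold change of -0.07 (adjusted p = 0.474 in the authors' deposited table).

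Of 15 measured genes of E2F and DREAM regulators, which set the transcription of licensing genes, 1 fell, beside 1.81% of all genes. By the deposited call 3 of the 15 were lower, beside 7.52% of all genes, and at an unadjusted p under 0.05 there were 6 lower and 2 higher, beside 17.5% and 15.8%. E2f1, an activator, fell 1.23-fold on its main transcript, from 12.8 to 10.5 (adjusted p = 0.042 in the authors' deposited table), and had a log2 fold change of -0.38 over both rows, which scaling to the same sum reduced in size to -0.18. The list ranged from -1.17 for Mybl2, an activator of late cell cycle genes, to 0.97 for Rbl2, a repressor of the retinoblastoma family. Rbl2 stood at 19.9 with simvastatin and 10.2 in control (adjusted p = 0.544 in the authors' deposited table), and Mybl2 at 3.98 and 8.93 (smallest adjusted p = 0.076 in the authors' deposited table). Both were named after their values were seen.

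**Figure D4:**
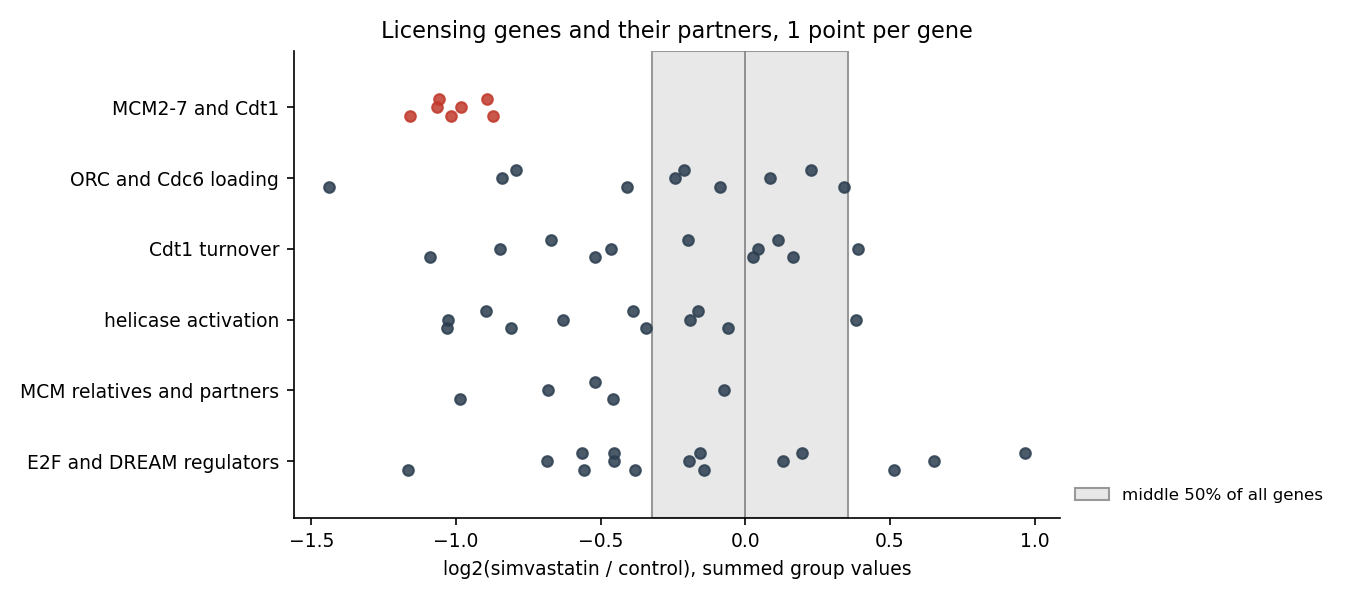
Log2 ratio of simvastatin to control, summed over transcripts, for the 7 licensing genes in red and for 5 lists of partner genes in dark blue, 1 point per gene, with a grey band for the middle 50% of all genes. The red points lie between -1.16 and -0.87, left of the band, while each list but that of MCM relatives and partners reaches to the right of 0.

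Outside the listed genes, 5 genes had summed values whose ratio was nearest the median of the 6 subunits, among 105 candidates with a control total of at least 20 and a most abundant transcript with an adjusted p under 0.05 in the authors' deposited table. They were Rrm2, a ribonucleotide reductase subunit, Cdk1, the mitotic kinase, Marcksl1, an actin-binding membrane protein, Ccnb1, for cyclin B1, and Aurkb, a mitotic kinase. Their log2 fold changes were -1.01, -1.01, -1.03, -0.96 and -1.05, each within 0.05 of that median. This likeness rests on 2 group values per gene and on a threshold that Mcm5, Mcm6 and Mcm7 did not pass.

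Mcm4 and Mcm7 each start near another gene on the opposite strand. In GENCODE the gene start of Prkdc lies 466 bases from that of Mcm4, and that of Ap4m1 lies 420 bases from that of Mcm7. Neither neighbour had a row in the main table, so whether they moved with Mcm4 or Mcm7 could not be analysed.

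The authors' deposited enrichment table named at least 1 of the 7 genes in 19 terms, all of genes called lower, and its gene lists were complete for 14 of these. The 3 of smallest adjusted p with at least 2 of them were nucleoplasm, chromosome and cell cycle, which each named the same 6 genes (3.20-fold, 8.15-fold and 8.0-fold enrichment in the authors' deposited table). The KEGG term DNA replication, named after its values were seen, had 15 genes and a 13.2-fold enrichment in the authors' deposited table, and named Mcm2, Mcm3, Mcm4, Mcm6 and Mcm7. Mcm5 was named by 0 of the 19 terms, and it had no call in the main table. Since the terms were built from those calls, they are not independent evidence of the direction of these genes.

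The authors' comparison with A375, a human melanoma line, held 3 of the 7 genes. It gives a z-score per gene for A375 cells treated with 10 µM simvastatin, against 3.5 µM here, without saying how the z-score was made. The values of both lines are set side by side only, because the doses differ and a z-score is not the same measure as a log2 fold change. Mcm3 had a z-score of -4.37, Mcm2 of -3.57 and Mcm4 of -3.25 in the authors' deposited table. From the lowest, these rank 9, 14 and 19 among 158 entries, whose median z-score was 0.27 and whose lowest was -9.22. How the authors chose these entries was not examined here, so the ranks hold within their list only. All 3 genes had fallen in the mouse cells by the authors' test. Mcm5, Mcm6 and Mcm7, which did not pass, were not among the entries, and neither was Cdt1, which fell. Low z-scores were common among genes lower in the mouse cells, since 46 of the 64 such entries had a negative z-score and their median was -1.51. The log2 fold changes for the mouse cells were -1.03, -0.86 and -1.13 in the authors' deposited table. The value for Mcm4 is larger in size than that of its summed transcripts, -0.98. The mean over a gene's transcripts of the log2 ratio of values plus 1 was within 0.01 of the authors' deposited value for 146 of 157 entries, and for Mcm4 that mean gives its assembled model the same weight as Mcm4-201.

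**Figure D5:**
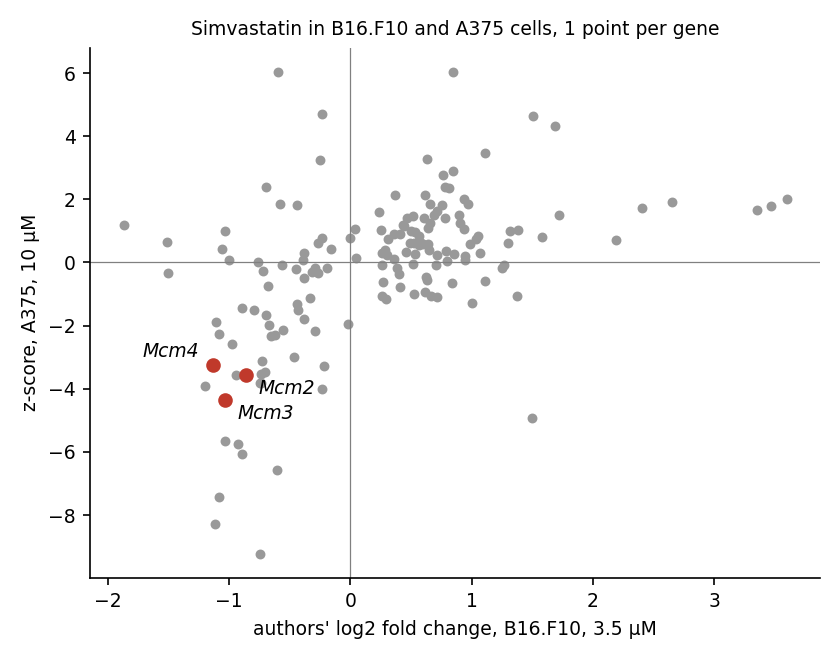
Z-score in A375 cells given 10 µM simvastatin against the authors' log2 fold change in B16.F10 cells given 3.5 µM, with 1 point for each of 158 entries and the 3 licensing genes in red. Mcm2, Mcm3 and Mcm4 lie in the lower left, with z-scores between -4.37 and -3.25.

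The cells carried the markers of their labelled lineage. All 10 melanocyte markers were measured, with summed group values of 11769 with simvastatin and 8250 in control, and 1 of them, Gpnmb, rose (1.75-fold, adjusted p = 0.042 in the authors' deposited table), beside 2.03% of all genes higher. By the deposited call 2 of the 10 were higher, beside 8.58% of all genes, and 4 were at an unadjusted p under 0.05, beside 15.8%. Of 15 markers of leukocytes, fibroblasts, endothelium and epithelium, 0 had a row. Only 52 of the 68 partner genes had a row, so a missing row does not show that a gene is silent. The part of these marker levels in the lower values of the licensing genes was not tested.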

How the data were processed

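The samples were grouped by their titles into 3 control and 3 simvastatin samples. The submitters' processing notes name HISAT2 2.0.5, StringTie and the build GRCm38 (mm10). Counting, scaling, any filter on low values and the test were not given in the sources used here. All deposited signal values, 1 per group and transcript, the signed fold ratio (a score below 0 where treated cells were lower), the p-values and the adjusted p-values were made by the authors. The log2 fold changes per gene and the z-scores of the human comparison are also the authors' deposited values. No column of values per sample was used, so no test was refitted. The labels call the samples biological replicates without naming separate cultures, so the p-values measure the spread between these samples, which may be technical.

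Group values were summed over a gene's rows and log2 ratios taken without a pseudocount (Python 3.11.15, pandas 2.3.3). The code was tested on simulated data. Alternatives used the most abundant transcript, Ensembl rows, a pseudocount of 1, a minimum group mean of 1, scaling to equal sums, centring on the median, and other rules for a call. The genes, their partner lists and the markers were chosen with earlier results of these data known. Every member was named. From each list up to 6 genes with an adjusted p under 0.05 were named, or else the 3 of highest summed value, and genes outside this rule are marked in the text as named after their values were seen. Gene coordinates are those of GENCODE release M21, and promoters those of RefSeq, both on GRCm38. The interaction and aggressiveness tables named 0 of the 7 genes and were not used.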

Additional observations from a re-analysis of the deposited data

How the results depend on the processing

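Under the 6 other ways of forming a value, the log2 fold changes of the 7 genes gave 42 values, of which 42 were negative, from -1.63 to -0.68, and 11 moved by 0.1 or more. Every member row was lower with simvastatin, so only scaling to equal sums or centring on the median could have changed a sign. The median of the 6 helicase subunits moved to -0.80 with groups scaled to the same sum, and their span to 0.81 with Ensembl transcripts alone, where Mcm7 is left with 1 transcript. At the authors' adjusted p under 0.05, 4 member genes and 4 member transcripts were lower, beside 1.81% of all genes and 0.987% of all transcripts. An unadjusted p under 0.05 gave 7 genes and 9 transcripts, beside 17.5% and 10.2%. The authors' own call gave 6 genes and 7 transcripts, beside 7.52% and 4.37%. For the partner genes the count of 2 lower became 15 with the authors' own call (7.52% of all genes), 23 with the unadjusted p (17.5% of all genes, with 3 partner genes higher) and 5 (3.5% of all genes) with an adjustment recomputed by the Benjamini-Hochberg method from p-values printed to 3 decimals. Over all transcripts that recomputed adjustment gave 304 lower and 344 higher, against 157 and 176 with the authors' values. No paired analysis was possible because the tables used here hold 1 value per group, and no replicate could be left out. The depth behind each value is unknown, and no interval could be given.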
